A study of Mus musculus with 2 samples.

Results

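Calcium buffer proteins, calmodulins and the calmodulin-binding peptides of the Pcp4 family were followed in RNA of laser-captured mouse Purkinje cells, the output neurons of the cerebellar cortex. The members are 7 genes chosen by name: the buffers Calb1, Calb2 and Pvalb, the calmodulin genes Calm2 and Calm3, and Pcp4 with its relative Pcp4l1. All 7 were found among the 43346 rows of the deposited tables that carry Ensembl gene identifiers. The series holds 2 pools of 30 cells each, numbered as biological replicates 1 and 2, from adult males of strain B6CASTF1/J, a first-generation cross of C57BL/6 and castaneus mice, aged 14 months. No genotype or treatment separates the pools, so there is a single group and no contrast between conditions. The labels give both pools the same donor identifier and do not say whether they came from separate animals, so each standard deviation (SD, n = 2) covers no more than the scatter of these pools and could be technical.

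The gene tables summed to 31503819 expected counts (estimated reads) in pool 1 and 28709397 in pool 2. A list of 13 Purkinje cell markers holds Calb1, a member, and the other 12 genes were all at a TPM (transcript abundance corrected for length) of at least 1 in both pools, the level counted here as detected. Summed over those 12, TPM was 59021 in pool 1 and 61905 in pool 2. Markers of Bergmann glia and astrocytes were detected for 11 of 12 genes, with summed TPM of 3353 and 5673, so the captured material was not Purkinje cell RNA alone. In such pooled material, fewer cells of a type and less RNA per cell cannot be told apart.

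Calcium enters Purkinje cell dendrites through voltage-gated channels and leaves internal stores through inositol trisphosphate receptors. Calbindin (Calb1) and parvalbumin (Pvalb) are cytosolic EF-hand proteins that bind the incoming calcium and shape how long the signal lasts, while calretinin (Calb2), a close relative of calbindin, is known in the cerebellum from granule cells and unipolar brush cells. Calmodulin is an EF-hand sensor rather than a buffer, and several genes encode the same calmodulin protein. Pcp4 (also called PEP-19) is a small peptide with an IQ motif that binds calmodulin and speeds calcium binding and release, and Pcp4l1 is a related peptide.

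Because several members resemble each other, their coding sequences were compared first, to show whether reads can be told apart. The calmodulin pair is shown because both genes encode the same protein, yet their mRNAs differ. Below are coding bases 1 to 150 of each, 5′ to 3′, from the GENCODE M21 transcripts Calm2-201 (chromosome 17, 87434027 to 87446795, minus strand, build mm10) and Calm3-201 (chromosome 7, 16916948 to 16923843, minus strand). Capitals mark the bases at which they differ.
Calm2: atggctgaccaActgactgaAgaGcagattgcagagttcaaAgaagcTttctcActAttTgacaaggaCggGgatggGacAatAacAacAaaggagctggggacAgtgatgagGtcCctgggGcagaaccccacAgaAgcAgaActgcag
Calm3: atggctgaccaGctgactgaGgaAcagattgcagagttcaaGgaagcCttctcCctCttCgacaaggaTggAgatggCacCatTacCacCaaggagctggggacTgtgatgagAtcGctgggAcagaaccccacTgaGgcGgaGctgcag
Over all 450 coding bases 78 differed, 74 of them at the third position of a codon, and the longest identical run was 17 bases.

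The Pcp4 pair is shown whole, since these peptides are short and their levels lie furthest apart among related members. The sequences come from Pcp4-201 (coding bases between 96467782 and 96525517 of chromosome 16, plus strand) and Pcp4l1-201 (171174383 to 171196019 of chromosome 1, minus strand). Capitals mark the longest run of bases that both share.
Pcp4: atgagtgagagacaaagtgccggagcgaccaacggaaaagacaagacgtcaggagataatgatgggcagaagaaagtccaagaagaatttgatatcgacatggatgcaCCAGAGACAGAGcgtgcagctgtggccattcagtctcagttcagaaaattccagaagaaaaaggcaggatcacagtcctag
Pcp4l1: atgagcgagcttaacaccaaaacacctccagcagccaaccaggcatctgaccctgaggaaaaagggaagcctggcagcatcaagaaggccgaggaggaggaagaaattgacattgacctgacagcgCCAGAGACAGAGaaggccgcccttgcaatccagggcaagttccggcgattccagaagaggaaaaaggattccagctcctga
The coding sequences are 189 and 207 bases long, matched at 127 of 182 aligned bases (69.8%), and shared no run longer than 12 bases. Calb1 and Calb2 matched at 68.4% of 772 aligned coding bases, with a longest shared run of 12.

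None of these pairs could share, without mismatches, a whole read of 100 bases, the length that the deposited effective lengths imply. Of all 100-base windows in the annotated transcripts of Calb1, Calb2, Pvalb and Pcp4l1, 0 occurred in the transcripts of any other gene in GENCODE M21. For Calm2 it was 11 of 1464 windows, shared with the processed pseudogene Gm7308, which was given 459 counts in pool 1 and 285 in pool 2. Calm3 shared 3 of 2508 windows with a processed pseudogene. For Pcp4, 146 of 542 windows (26.9%) also lie in Igsf5, a cell adhesion gene of the immunoglobulin family, since a later annotation has an Igsf5 locus that runs through Pcp4 on the same strand. The identifier of that locus was not among the deposited rows. A row under another identifier with the symbol Igsf5, whose own locus ends before Pcp4, held 35.5 and 107 counts, against 587858 and 461974 for Pcp4. Whether reads of Igsf5 were counted as Pcp4 was not tested.

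The 7 genes covered more than 4 orders of magnitude. Pcp4 was the highest, followed by Pvalb and Calm2, then Calb1, Calm3, Pcp4l1 and Calb2. All 7 were detected in both pools, whereas 30.3% of 21461 nuclear protein-coding genes were. The members were picked as known brain genes for calcium-binding or calmodulin-binding proteins, so that count is only a description. Together they held 4.60% of all TPM in pool 1 and 4.06% in pool 2. Neighbours in the order were set apart where both pools agreed on the order and the means differed by more than the sum of their SDs. That held for each step except Pvalb and Calm2, which were not ordered.

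**Figure D1:**
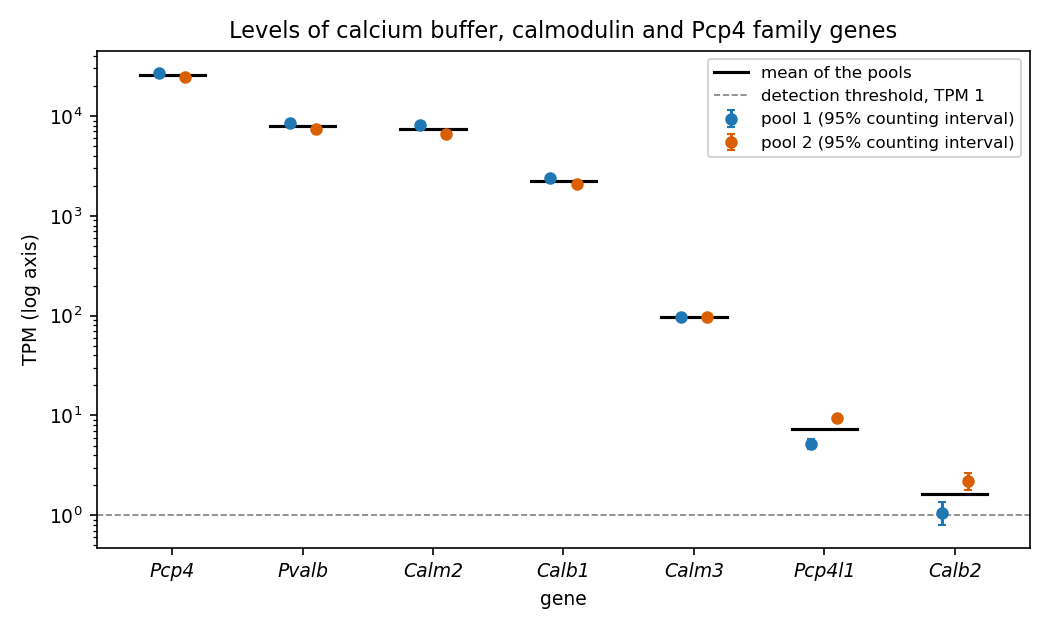
Level of each member as TPM on a log axis, by gene, in pool 1 and pool 2 (points), with the mean of the pools (bars) and exact 95% intervals for counting error alone, which are narrower than the points for most genes. Pcp4 lies at 26704 and 24370 TPM, Pvalb and Calm2 lie side by side, and Calb2 lies at 1.05 and 2.21, next to the detection threshold.

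Pvalb was the most abundant of the buffers. Pools 1 and 2 gave TPM of 8570 and 7464 from 305525 and 229161 counts (mean 8017 ± 782, SD, n = 2). The gene (ENSMUSG00000005716.12, chromosome 15, 78191114 to 78206400, minus strand) ranked 9 among nuclear protein-coding genes in each pool. Its FPKM, which scales by length and depth only, was 11049 and 9093. Parvalbumin is also made by interneurons of the cerebellar cortex, and their part in the Pvalb reads was not tested. The summed TPM of 9 markers of molecular layer and Golgi interneurons was 37.8 and 38.2, which gives no Pvalb level for those cells. Of those markers 3 were detected in both pools, the highest being the kinase gene Prkcd (21.5 and 18.0) and the GABA-synthesising enzyme Gad2 (11.9 and 13.5), and none was at 0 in both.

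Calb1 was lower than Pvalb per transcript but had more reads, since its mRNA is longer. Its TPM was 2414 and 2064, a mean of 2239 ± 248 (SD, n = 2), from 403698 and 297234 counts, and its FPKM was 3112 and 2514. The gene (ENSMUSG00000028222.2, chromosome 4, 15881264 to 15908064, plus strand) ranked 30 and 41 among nuclear protein-coding genes. Calb1-201, the coding transcript of 4222 bases, held 99.9% of the gene's TPM in each pool, and both retained-intron transcripts were near 0. Pvalb-201 likewise held 99.0% and 99.1% of Pvalb.

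Calb2 was close to the limit of detection. Its rows held 57 and 103 counts for pools 1 and 2, a TPM of 1.05 (exact 95% interval 0.795 to 1.36, counting error only) and 2.21 (1.80 to 2.68). The mean was 1.63 ± 0.820 (SD, n = 2), and its FPKM was 1.36 and 2.70. The gene (ENSMUSG00000003657.8, chromosome 8, 110137502 to 110168210, minus strand) is also on the granule cell marker list used here, of which 6 of 8 genes were detected in both pools, with summed TPM of 34.6 and 46.3. Calb2 itself is part of that count and sum. Among those markers the transcription factors Zic1 had 9.13 and 11.8 and Neurod1 had 7.39 and 10.9. Under a TPM of 1 in both pools were Slc17a7 (0.24 and 0.27) and Fat2 (0.45 and 0.26). Of the unipolar brush cell markers, the transcription factors Eomes had 0.39 and 0.16 and Lmx1a had 0 and 0.01. Which cells carried the Calb2 reads was not tested.

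Calm2 supplied nearly all of the calmodulin mRNA of the pair. Its TPM was 8217 and 6640 in the pools in turn (mean 7428 ± 1115, SD, n = 2), from 368651 and 256624 counts, and its FPKM was 10593 and 8089. The gene (ENSMUSG00000036438.8, chromosome 17, 87433412 to 87446935, minus strand) ranked 10 in each pool. Calm2-201 held 99.7% ± 0.0707 (SD, n = 2) of its TPM, while the retained-intron transcripts Calm2-202 and Calm2-203 held 0.20% and 0.10%.

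Calm3 had a TPM of 97.5 and 96.2, a mean of 96.9 ± 0.933 (SD, n = 2), from 3292 and 3351 counts, and its FPKM was 126 and 117. It is encoded on chromosome 7 (ENSMUSG00000019370.10, 16915379 to 16924114, minus strand), and ranked 482 and 531. By TPM, Calm2 exceeded Calm3 by 84.3 times in pool 1 and 69.0 times in pool 2. Calm2 made up 98.8% and 98.6% of the summed TPM of the pair.

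The near-equal gene levels of Calm3 hid a different division among its transcripts. Calm3-201, the 2290-base transcript that encodes calmodulin, stood at 20.3 TPM in pool 1 and at 29.1 in pool 2, or 1.43 times higher. Calm3-202, a 648-base transcript annotated as subject to nonsense-mediated decay, had 42.6 and 38.6, and Calm3-204, a 482-base processed transcript, had 34.7 and 28.6. The short coding transcript Calm3-203 had 0 counts in both. Calm3-201 thus held 20.8% and 30.2% of the gene's TPM but 54.8% and 66.5% of its counts. The effective length of the gene, averaged over its transcripts, was 831 bases in pool 1 and 996 in pool 2, which enters the gene's TPM. Between the main coding transcripts alone, Calm2-201 exceeded Calm3-201 by 404 and 228 times, a comparison added after these values were seen.

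**Figure D2:**
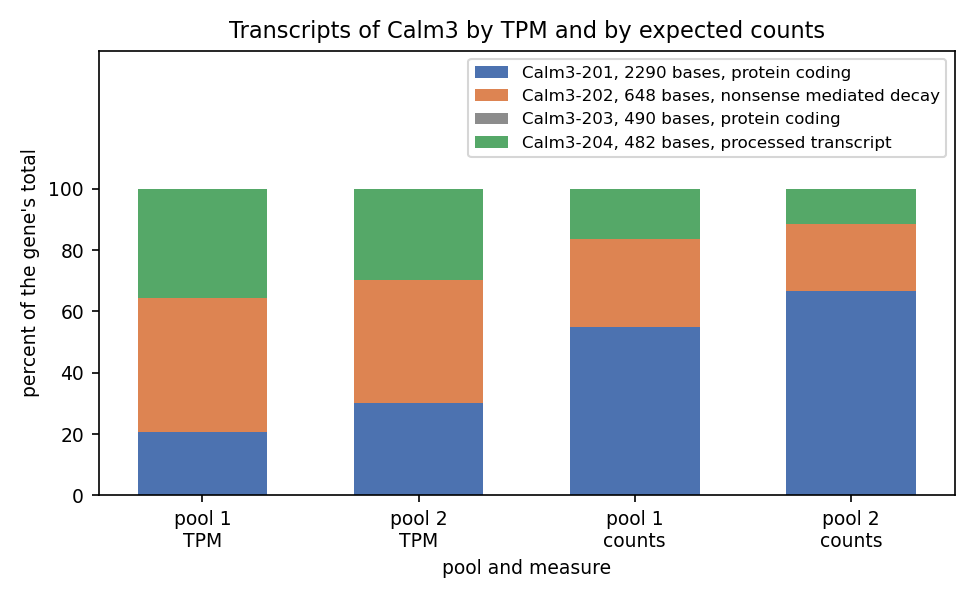
Division of Calm3 among its annotated transcripts, as percent of the gene's TPM (left pair of bars) and of its expected counts (right pair), in each pool. The long coding transcript Calm3-201 takes 20.8% and 30.2% by TPM and 54.8% and 66.5% by counts, and Calm3-203 is at 0.

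Pcp4 was the second highest nuclear protein-coding gene in each pool. It had a TPM of 26704 and 24370, a mean of 25537 ± 1651 (SD, n = 2), and its FPKM was 34428 and 29689. On its own it took 2.67% and 2.44% of all TPM, and 1.87% and 1.62% of the counts of all genes. The gene (ENSMUSG00000090223.1, chromosome 16, 96467606 to 96525793, plus strand) spreads 3 exons over 58188 bases to make an mRNA of 641 bases, and a single transcript was counted for it. The spread between pools was 6.46% of the mean, lower than for Pvalb (9.75%) and Calb1 (11.1%) and higher than for Calm3 (0.964%).

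Its relative Pcp4l1 was low. Its rows held 309 and 483 counts for pools 1 and 2, a TPM of 5.15 (exact 95% interval 4.59 to 5.76, counting error only) and 9.34 (8.53 to 10.2). The mean was 7.25 ± 2.96 (SD, n = 2), and its FPKM was 6.64 and 11.4. Pool 2 was the higher by TPM. The gene (ENSMUSG00000038370.6, chromosome 1, 171173262 to 171196268, minus strand) ranked 3023 and 2436. Pcp4 exceeded Pcp4l1 by 5185 times in pool 1 and 2609 times in pool 2.

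Ratios within a pool do not depend on how the libraries are scaled to each other. The summed TPM of Calb1, Calb2 and Pvalb was 10985 in pool 1 and 9530 in pool 2, and that of Calm2 and Calm3 was 8314 and 6736. Buffer transcripts therefore exceeded those of these calmodulin genes by 1.32 times in pool 1 and 1.41 times in pool 2 (mean 1.37 ± 0.0662, SD, n = 2). The sum holds only Calm2 and Calm3, so each ratio over it is an upper limit for the ratio to all calmodulin mRNA. Pvalb alone was at 1.03 and 1.11 times the calmodulin sum, near parity, and Calb1 was at 0.290 and 0.306.

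Pcp4 transcripts outnumbered those of Calm2 and Calm3 together in both pools. The ratio was 3.21 and 3.62 in the pools in turn (mean 3.41 ± 0.287, SD, n = 2). Pcp4 also exceeded the summed buffers, by 2.43 and 2.56 times. Pcp4l1 was at 0.000619 and 0.00139 of the calmodulin sum, so adding it to Pcp4 leaves the ratios at 3.21 and 3.62. Among the buffers, Pvalb made up 78.0% and 78.3% of the summed TPM, Calb1 22.0% and 21.7%, and Calb2 0.00956% and 0.0232%. The ratio of Pvalb to Calb1, 3.55 and 3.62, varied least in proportion of the ratios given here, with a mean of 3.58 ± 0.0473 (SD, n = 2).

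Length decides several of these ratios. In expected counts with no length correction, Pvalb was at 0.757 and 0.771 of Calb1, and Pcp4 at 0.829 and 0.877 of the summed buffers. These turn the order of Pvalb against Calb1 and of Pcp4 against the buffers, because mRNAs of 641 bases (Pcp4) and 977 bases (Pvalb) give fewer reads per molecule than one of 4222. Against the calmodulin sum, Calb1 rose above equality by counts, at 1.09 and 1.14, and Pvalb fell below it, at 0.821 and 0.881. Pcp4 stayed above that sum by counts, at 1.58 and 1.78.

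**Figure D3:**
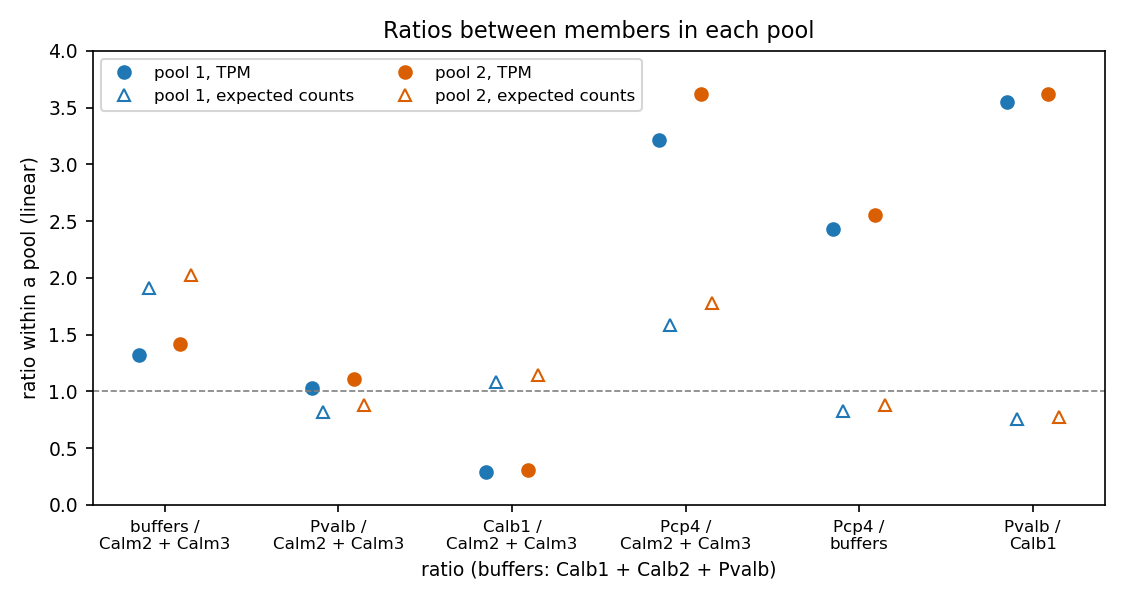
Ratios between members within each pool on a linear axis, from TPM (filled circles) and from expected counts with no length correction (open triangles), with a dashed line at equality. By TPM, Pcp4 over Calm2 plus Calm3 lies at 3.21 and 3.62 and Pvalb over Calb1 at 3.55 and 3.62. By counts the latter drops below equality.

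Between the pools, by TPM, the most abundant members leaned one way and the scarcest the other, while Calm3 was near equal. Dividing pool 2 by pool 1, log2 ratios of TPM + 1 came to -0.31 for Calm2, -0.23 for Calb1, -0.20 for Pvalb, -0.13 for Pcp4 and -0.02 for Calm3. It was 0.75 for Pcp4l1 and 0.65 for Calb2. On that scale 0 of 7 members differed by more than 2-fold, beside 10.3% of the 8958 genes detected in at least 1 pool (8.22% higher in pool 2 and 2.08% higher in pool 1). Without the added 1, which understates changes of low genes, Calb2 differed by 2.10 times. The median over the members was -0.13 and that over all detected genes was 0.24. A single library stands for each pool, so no test was run and nothing replicates these ratios.

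By TPM, 5 members were higher in pool 1, as were 31.3% of all detected genes. In counts scaled by TMM (edgeR's trimmed mean scaling), the values were -0.57 for Calm2, -0.49 for Calb1, -0.46 for Pvalb, -0.40 for Pcp4, -0.02 for Calm3, 0.59 for Pcp4l1 and 0.79 for Calb2, against a median of 0.04 for all detected genes. Past 2-fold by TMM were 0 members, beside 19.6% of all detected genes (11.7% higher in pool 2 and 7.86% higher in pool 1). Scaling by spike-in totals, the RNA standards counted in each library, put 6 of 7 members lower in pool 2. The values were then -1.35 for Calm2, -1.27 for Calb1, -1.24 for Pvalb, -1.18 for Pcp4, -0.80 for Calm3, -0.19 for Pcp4l1 and 0.01 for Calb2. On that scale 4 members were past 2-fold, all higher in pool 1, beside 37.6% of all detected genes (3.9% higher in pool 2 and 33.7% higher in pool 1), whose median was -0.74. Calm3 turned to 0.16 under total counts, below the median of 0.23, and to 0.003 under DESeq2 size factors.

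Marker lists moved beside these values. Bergmann glia and astrocyte markers were all higher in pool 2 among the 11 detected, with a median log2 ratio of 0.79, and the highest were the glutamate transporter Slc1a3 (1310 and 2298 TPM) and the septin Sept4 (588 and 845). In count ratios 10 of the 11 glial markers lay above the median of all detected genes, but under spike-in totals 4 of 11 were above 0 and their median was -0.23. The only marker of that list under a TPM of 1 was Gfap (0.50 and 0.47). Granule cell markers, which include the member Calb2, had a median of 0.49. Of these, 5 of 6 were higher in pool 2, Calb2 among them. Under spike-in totals 1 of 6 was, and that gene was Calb2. Purkinje markers other than Calb1 had a median of -0.01 with 6 of 12 higher in pool 2 (of all 13, 2 in TMM-scaled counts and 0 under spike-in totals), led by the G protein subunit Gng13 (37575 and 39449) and the G protein regulator Pcp2 (16296 and 17694). Red blood cell markers had summed TPM of 2453 in pool 1 and 16.3 in pool 2, oligodendrocyte markers 37.3 and 53.9, endothelial and mural markers 21.1 and 14.7, and microglial markers 4.01 and 3.26. The part of other cells in the values of Calb2 and Pcp4l1 was not tested.

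**Figure D4:**
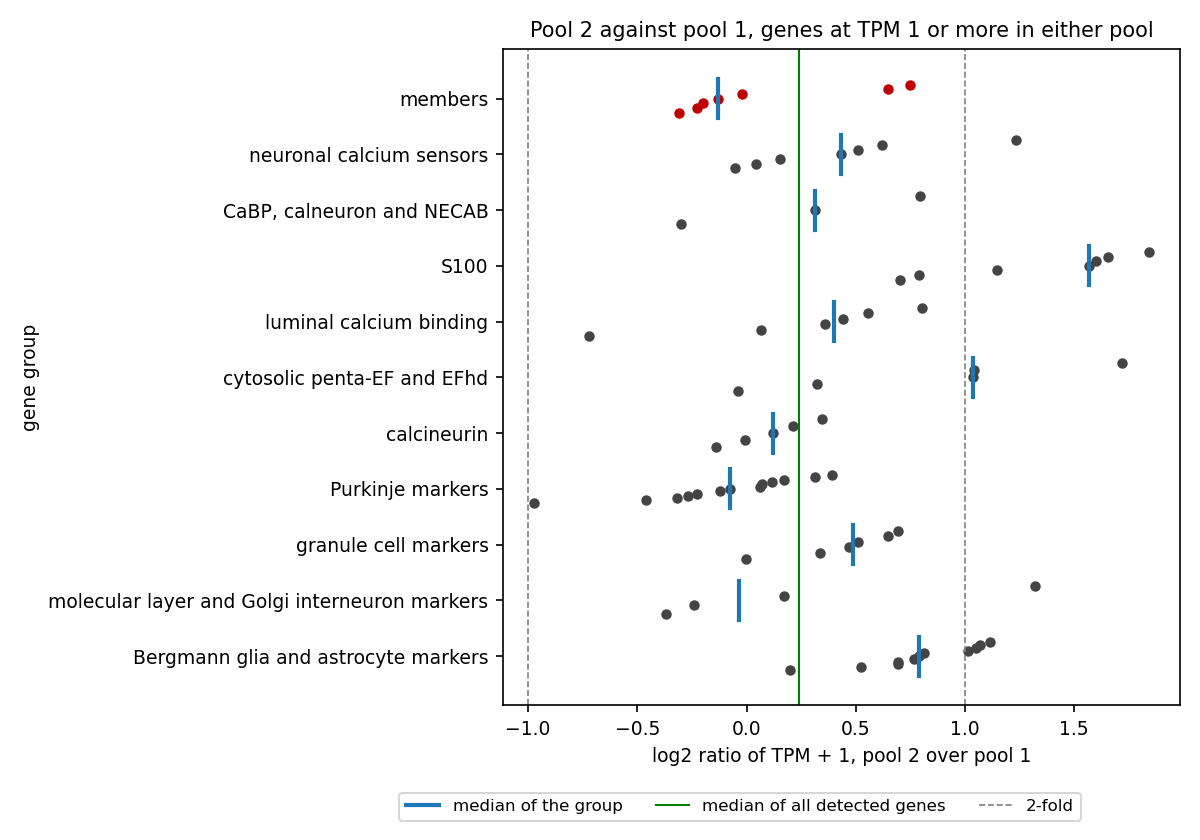
Log2 ratio of TPM + 1, pool 2 over pool 1, for the members (red points) and for genes of other lists (grey points) at a TPM of at least 1 in either pool, with each group's median (blue bars), the median of all detected genes at 0.24 (green line) and 2-fold (dashed lines). Calb1 and Calb2 are drawn again among the Purkinje and the granule cell markers. The members lie between -0.31 and 0.75, within 2-fold, while 5 of 7 S100 genes and 4 of 11 Bergmann glia and astrocyte markers lie beyond it (4 and 0 in TMM-scaled counts, and 0 and 0 under spike-in totals, where 4 members do); endothelial, oligodendrocyte, microglial and red blood cell markers are not drawn.

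Other genes of calcium binding, calmodulin binding and calcineurin were read from a list of 52, chosen by name. Of these, 31 were detected in both pools and 17 in neither. Among all 21461 nuclear protein-coding genes it was 6493 (30.3%) in both and 13463 in neither. Among relatives of the members, the buffer genes Scgn (secretagogin) and S100g had 0 counts in both pools, and Ocm (oncomodulin, a parvalbumin relative) had 21 counts in pool 1 and 0 in pool 2. The calmodulin-like genes Calml3 and Calml4 had 0 counts in both. Nrgn, the IQ-motif peptide neurogranin of forebrain neurons, also had 0, and the related Gap43, a growth-cone protein, had a TPM of 4.99 and 3.20.

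Neuronal calcium sensors, EF-hand proteins that switch membrane targets, were detected in both pools for 5 of 11 genes. The highest was Hpcal1, a hippocalcin-like sensor, at 605 and 673 TPM, followed by Kcnip4, a potassium channel partner, at 102 and 105. Hpcal1 thus lay above Calm3 and below Calb1 in both pools. Among CaBP, calneuron and NECAB genes 3 of 9 were detected, led by Caln1 (calneuron, 17.0 and 13.6) and Cabp7 (3.44 and 4.52). Of the calcineurin genes, which encode the phosphatase that calmodulin activates and its regulators, 5 of 6 were detected, led by the catalytic subunits Ppp3ca (56.7 and 72.4) and Ppp3cb (39.2 and 39.0).

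The S100 genes, small EF-hand proteins of which S100b is a glial marker, had the highest median ratio of pool 2 to pool 1 among these lists. Of 8 genes 7 were detected, all 7 were higher in pool 2, and 5 of them by more than 2-fold, with a median log2 ratio of 1.57 against 0.24 for all detected genes. Of all detected genes 8.22% were that much higher in pool 2. In count ratios 4 were past 2-fold under TMM and 0 under spike-in totals, where 5 of 7 were above 0 and their median was 0.58 against -0.74 for all detected genes. S100b, which is also on the glial marker list, had 271 and 469 TPM and S100a1 had 54.5 and 174. Among cytosolic penta-EF-hand and EFhd genes, all 5 were detected and 3 were past 2-fold (1 in TMM-scaled counts), with a median of 1.04. The highest were the calpain small subunit Capns1 (53.4 and 67.1) and Pdcd6 (17.4 and 36.8). Of 6 calcium-binding proteins of the secretory pathway 5 were detected in both pools, led by the chaperones Canx (329 and 345) and Calr (30.9 and 45.8).

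The genes nearest to the members in both pools, by distance in log2(TPM + 1) over 2 samples, describe level only. For Pcp4 it was the actin gene Actb (16767 and 20444 TPM), at a distance of 0.72. For Calb1 it was Atp5h, an ATP synthase subunit (2488 and 2160), at 0.08, and for Calm3 it was Bex3 (96.8 and 93.5), at 0.04.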

How the data were processed

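RNA of 2 pools of laser-captured Purkinje cells was measured. The labels name a SMARTer Ultra Low kit for making the libraries. Per the text deposited with each sample, quantification used build mm10 with GENCODE annotation M4. Aligner and quantifier: not given in the sources used here. According to their headers, the deposited tables hold expected counts, TPM, FPKM and posterior mean TPM for genes and transcripts, and, for each transcript, its percent of the gene. These were used as deposited.

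GENCODE M21, a later release for mm10, supplied symbols, coordinates and sequences, and 42462 of 43346 gene identifiers matched a symbol. Reads of the castaneus allele align to a C57BL/6 reference, and the effect on levels was not tested. Another 26248 rows have bare numbers for identifiers and name no gene. They were left out of scaling and held 0.000412% and 0.000194% of counts.

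Detection was a TPM of at least 1, and pools were compared as the log2 ratio of TPM + 1 with a call at 2-fold. Pools were not tested against each other, having 1 library a side. Counts were rounded and scaled with edgeR 4.0.16 and DESeq2 1.42.0, checked on simulated data. Exact 95% intervals cover counting error only. Coding sequences were aligned with Biopython 1.88. Genes named are the members, the 2 highest detected genes of each list, the nearest gene in level for members, and further genes. The further genes, with 0 counts or near-threshold values, were chosen after values were seen, as were Eomes, Lmx1a, Gfap, Gap43, Slc17a7 and Fat2. Nearest genes are given for 3 members, and not every gene the rule picks is reported here. Members and lists were chosen with earlier results of these data known.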

Additional observations from a re-analysis of the deposited data

How the results depend on the processing

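Ratios that use genes of unlike length moved when expected counts replaced TPM: buffers over calmodulins to 1.97, Pcp4 over calmodulins to 1.68, Pvalb over Calb1 to 0.764, Pcp4 over Pcp4l1 to 1429 and Calm2 over Calm3 to 94.3. Counts per full length put Pvalb over Calb1 at 3.30. The main coding transcripts alone, added after the values were seen, put Calm2 over Calm3 at 316. Posterior mean TPM moved none of these ratios by more than 1 SD. TPM over nuclear genes alone put Pcp4 at 34359, Pvalb at 10786, Calm2 at 9993, Calb1 at 3012 and Calm3 at 130. Each of these rose by more than 1 SD, while Calb2 and Pcp4l1 moved by less. Mitochondrial genes, with copies of them, held 25.2% of TPM in pool 1 and 25.3% in pool 2. The share of detected genes past 2-fold was 10.3%, 4.997% with no filter on low values, 31.9% at 1.5-fold, 19.6% in TMM-scaled counts and 37.6% under spike-in totals, a scaling added to this count after the values were seen. Past 1.5-fold were 2 members, and past 2-fold under spike-in totals 4. At a TPM of at least 5, 6 members were detected. Leaving out a pool gives the value of the other pool, printed with each result. A calmodulin sum with more genes was planned and is not reported here. Levels of Calb2 rest on 57 and 103 counts. No paired analysis was possible because the pools form 1 group.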
